A study of Mus musculus with 6 samples.

Results

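Kinesins are motor proteins that use ATP to move along microtubules or to take them apart at their ends. One part of the family builds the mitotic spindle, moves chromosomes on it and completes the division of the cell, and its transcripts are made mainly in cycling cells. The other large part carries vesicles, organelles and RNA through cells that need not divide. In the spleen of an adult mouse, lymphocytes, macrophages and blood-forming cells express both parts.

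The members were the rows of the count table that are protein coding in GENCODE M21 and whose symbol starts with Kif or Kifc and a digit. This gave 40 of 24906 rows. One of them, Kif1bp, encodes a protein that binds kinesins but is no motor, so 39 motor genes remained: 13 mitotic, 17 transport and 9 other kinesins (cilium, centriole, signalling and microtubule ends). The motors Kif2b, Kif12 and Kif28 had no row in the table. Of the 39, 35 reached a normalized read count of 10 in 3 or more libraries and were tested, including all 13 mitotic, 16 of the transport and 6 of the other kinesins.

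The RNA was that of spleen cells, taken at an age of 12 to 16 months from mice of the C57BL/6J strain, with 1 library per mouse. The D3TA group held 3 mice carrying a CRISPR/Cas9-made substitution of threonine 283 by alanine (T283A) in Ccnd3, the gene for cyclin D3. The WT group held 3 wild-type mice of matched age. Per the series record, breeding kept the edited allele heterozygous, and mice of this age show severe signs of a myeloproliferative neoplasm. The labels do not state which of the 3 D3TA mice carried 1 or 2 edited alleles. The comparison asks how the spleen transcriptome of these mice differs from that of wild-type mice. The edit changes a codon in every cell of the mouse, and the counts cannot show it. Values are given throughout in the order of mouse 1, 2 and 3 of a group. Ccnd3 itself stood at 7842, 3509 and 2424 in D3TA and at 3086, 3064 and 2433 in WT.

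The libraries held 14944622 to 19456838 reads assigned to genes. Normalized read counts are the deposited values. A log2 difference is the D3TA mean less the WT mean of log2(normalized count + 1). The added 1 lessens the change of low genes, but a single library near 0 can enlarge it. Kif19a, at 0 in WT-2, differed by 1.97 on this scale and by 0.47 with DESeq2. Hemoglobin genes took 6.39% to 6.75% of reads in D3TA-1, D3TA-2 and WT-3 and 1.40% to 1.91% in the other three. The summed normalized count of Y-linked genes was above 200 in D3TA-3 and in WT-1 and at most 20.1 in the others. WT-2 stood apart, with 8449 genes at 0 reads against 3193 to 5170 elsewhere. B and T cell markers were present in every library. In such bulk samples, fewer cells of a type and less RNA per cell cannot be told apart.

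Every one of the 13 mitotic kinesins had a higher mean in D3TA than in WT. Their log2 differences ran from 1.20 (Kif22) to 2.06 (Kif18a), with a median of 1.60, against a median of 0.06 over all 15564 genes tested. No member passed the test over all genes: limma's adjusted p values lay between 0.232 and 0.513, and 0% of all genes were called. In 9 of the 13 the lowest D3TA library lay above the highest WT library, a pattern found in 8.18% of all tested genes. At an unadjusted p under 0.05 stood 12 of the 13, against 6.08% of all genes in that direction. The highest library was D3TA-1 for all 13, and D3TA-1 alone held 42.3% (Kif20a) to 62.0% (Kif22) of the summed level of the 3 D3TA libraries.

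**Figure D1:**
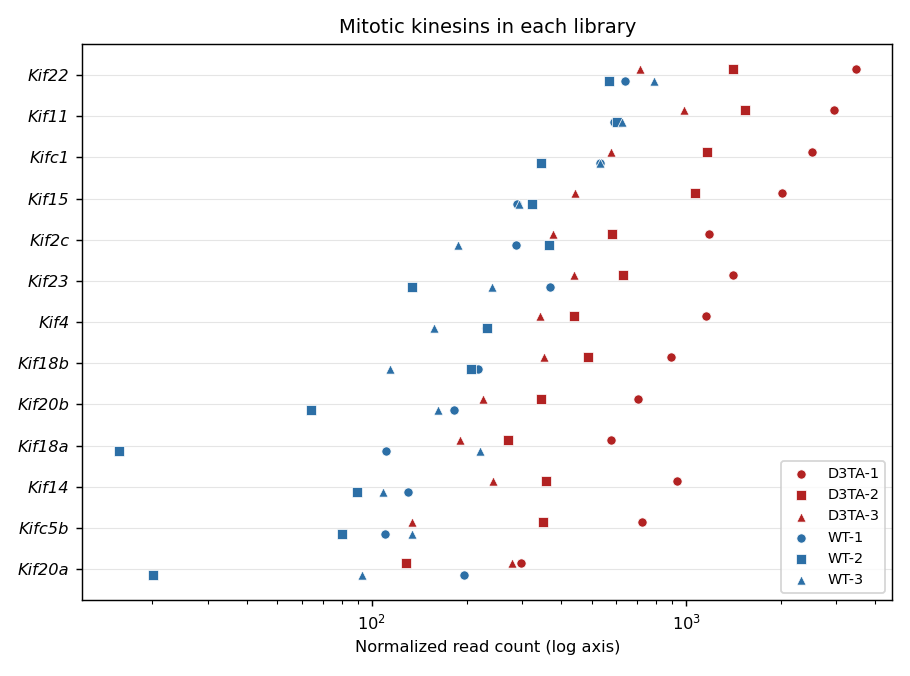
Normalized read count of each mitotic kinesin (log axis) in the 3 D3TA libraries (red) and the 3 WT libraries (blue), 1 point per library, ordered by WT mean. D3TA-1 is the highest point in all 13 rows, and in 9 rows all red points lie right of all blue points.

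Spindle assembly begins with motors that push the poles apart. Kif11 (Eg5, chromosome 19, 37376403 to 37421859, GRCm38) encodes the bipolar motor that slides antiparallel microtubules. Its normalized counts were 2960, 1544 and 984 in D3TA and 590, 602 and 625 in WT. The groups did not overlap, the WT mice lay within a narrow band, and the log2 difference was 1.44 ± 0.38 (SE), with a limma adjusted p of 0.263. Kif15, which can take over from Kif11 on spindle microtubules, stood at 2022, 1069 and 444 in D3TA and at 290, 323 and 295 in WT. Its groups did not overlap either, with a log2 difference of 1.70 ± 0.48, and the D3TA mice were spread far more widely than the WT mice.

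Kifc1 (HSET) walks to microtubule minus ends and focuses the poles. It had 2518, 1167 and 576 in D3TA and 530, 346 and 531 in WT, so that D3TA-3 lay just above the highest WT mouse. Kifc5b, its close homolog, had 722, 351 and 134 in D3TA and 110, 80.6 and 134 in WT, where D3TA-3 and WT-3 had almost the same value. Of the 100-base stretches in Kifc1 transcripts, 17.0% also occur in Kifc5b transcripts, so the split of reads between this pair is uncertain.

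Kif22 and Kif4 are chromokinesins, which ride on chromosome arms. Kif22 (Kid) stood at 3462, 1405 and 714 in D3TA and at 641, 569 and 791 in WT, so D3TA-3 fell inside the WT range. Kif4 (chromosome X, 100625737 to 100727214) had 1157, 439 and 341 in D3TA and 230, 233 and 158 in WT, without overlap. Of the exon bases of Kif4, 15.1% overlap Pdzd11 on the opposite strand, and without a strand-marking step reads there cannot be told apart.

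Motors at the microtubule ends and kinetochores set how far chromosomes swing. Kif2c (MCAK), which depolymerises microtubules at kinetochores, had 1184, 582 and 376 in D3TA and 288, 367 and 187 in WT. The groups did not overlap, but D3TA-3 lay only just above WT-2. Kif18b, a motor of astral microtubule ends, was better separated, at 895, 487 and 354 against 218, 207 and 114. Kif18a, which damps chromosome oscillations, had 578, 271 and 190 in D3TA and 111, 15.7 and 221 in WT. The 15.7 in WT-2 rests on 14 reads, and without WT-2 the log2 difference of Kif18a was 0.98 in place of 2.06.

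Cytokinesis motors act at the spindle midzone. Kif14, which works with citron kinase at the midbody, had the smallest p of the family. It stood at 933, 358 and 242 in D3TA and at 130, 89.5 and 108 in WT, a log2 difference of 1.99 ± 0.49 (SE) and a 3.98-fold difference, with a limma adjusted p of 0.232. Kif23 (MKlp1), a subunit of centralspindlin, had 1412, 628 and 439 in D3TA and 370, 134 and 241 in WT. Both genes kept the groups apart in every library.

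Kif20b (MPP1), a motor needed for the final cut, had 704, 344 and 226 in D3TA and 182, 63.8 and 162 in WT, again without overlap. Kif20a (MKlp2) carries the chromosomal passenger complex to the midzone and was the exception in its order. It had 299, 128 and 280 in D3TA and 196, 20.1 and 92.8 in WT. In the other 12 mitotic kinesins D3TA-1 exceeded D3TA-2 and D3TA-2 exceeded D3TA-3. Of the exon bases of Kif20a, 29.3% overlap Cdc23 on the opposite strand, a gene at a mean of 580, so its counts are uncertain, and without WT-2 its log2 difference was 0.71 in place of 1.60.

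**Figure D2:**
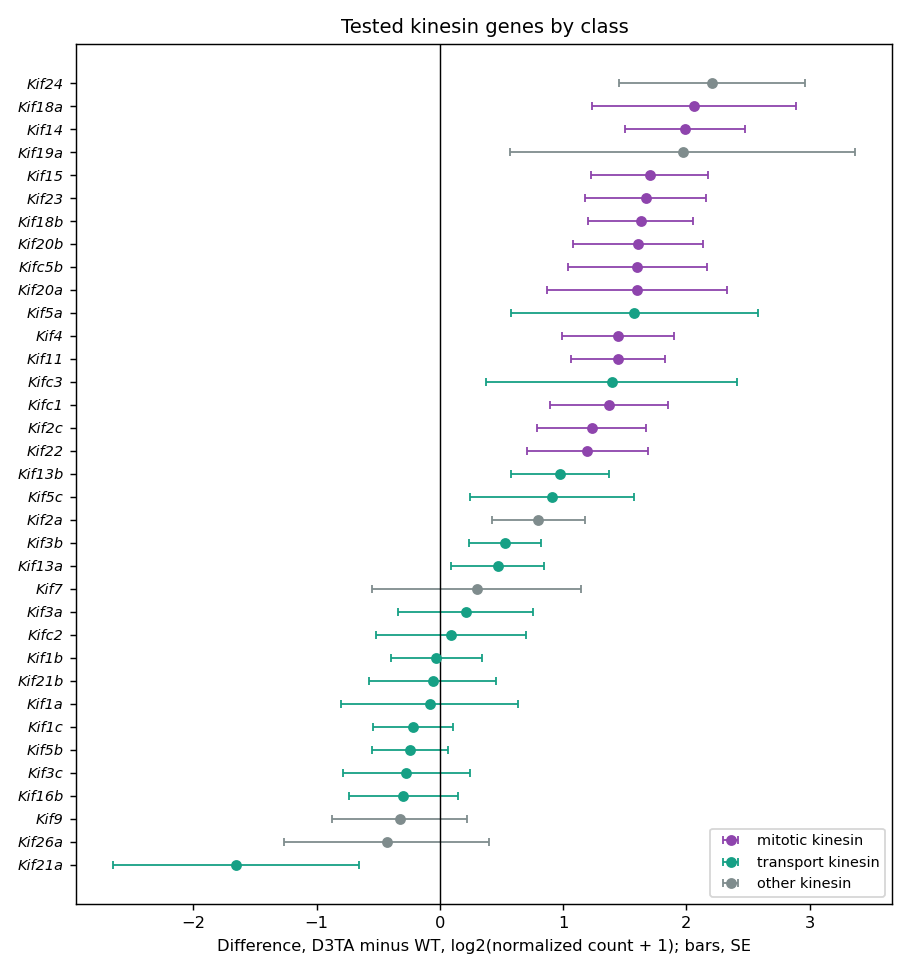
Difference between D3TA and WT (log2(normalized count + 1), points) with limma's standard error (bars) for the 35 tested kinesin genes, coloured by class. The 13 mitotic kinesins lie between 1.20 and 2.06, and the 16 transport kinesins lie on both sides of 0.

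The size of the mitotic difference varied with the libraries compared. Without D3TA-1 the median was 1.17, without WT-2 1.41, and without both 0.83, with all 13 above 0 each time. Leaving out D3TA-1 moved Kif22 from 1.20 to 0.60, Kif2c from 1.23 to 0.79, Kifc1 from 1.37 to 0.83, Kif4 from 1.45 to 0.92 and Kifc5b from 1.60 to 1.03. Between D3TA-3 and WT-1, the 2 libraries above 200 normalized Y-linked counts, the median was 0.51, and among the other 4 it was 2.14. It was 1.90 where hemoglobin took a high share of reads and 0.72 where it took a low share. In both splits D3TA-3 alone stands for D3TA on the side of the smaller median, and D3TA-1 and D3TA-2 on the other. The 2 splits are thus not separate findings. All 13 lay above 0 within each of these splits, although several of them rest on 1 library for a group. Over all genes the median within the same splits lay between 0.01 and 0.07.

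Other tools and subsets called some mitotic kinesins. On recovered reads, DESeq2 called 8 of the 13 as higher (Kif4, Kif11, Kif14, Kif15, Kif18b, Kif23, Kifc1 and Kifc5b), where it called 1.83% of all genes as higher. D3TA-3 was the lowest D3TA library for 12 of the 13. Without it, limma called 7 (Kif11, Kif14, Kif15, Kif18b, Kif22, Kifc1 and Kifc5b), against 1.59% of all genes. Of these 7, 6 were also in the DESeq2 set, which came from the same mice. With any other single library left out, limma called 0 of the 13. The quasi-likelihood test of edgeR and limma-voom called 0 kinesins. No transport or other kinesin was called by any of these.

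Other transcripts differed between the same libraries. All 14 tested markers of dividing cells (among them Mki67, Top2a and Pcna) lay above 0, with a median of 1.23, and their summed level ran from 31788 to 106597 in D3TA and from 21780 to 24820 in WT. All 10 neutrophil markers lay above 0, with a summed level of 79981 to 436771 against 11742 to 27861. The 10 erythroid markers summed to 16350 to 129746 in D3TA and to 19205 to 26734 in WT, and the 10 B cell markers to 11531 to 38124 against 61328 to 74503. The 10 T cell markers summed to 4796 to 16092 against 13907 to 20061, 9 megakaryocyte and platelet markers to 5466 to 12609 against 4104 to 5809, and 10 red pulp macrophage markers to 23572 to 49385 against 36223 to 78150. The part of these cell types in the kinesin differences was not tested.

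Set against the mean log2 level of the 14 dividing-cell markers in the same library, the mitotic kinesins differed less. The difference relative to those markers had a median of 0.40 over the 13, with values from -0.01 (Kif22) to 0.86 (Kif18a), and in 12 of 13 the groups overlapped. The exception was Kif14, at -2.59, -2.81 and -3.03 relative to the markers in D3TA and at -3.49, -3.75 and -3.55 in WT. Over all tested genes, 0.842% lay higher against the markers in every D3TA mouse than in any WT mouse. Kif22 and Kif2c (0.03) tracked the markers most closely on average.

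Transcripts of proteins that work with these motors were counted too. Of 18 listed spindle and cytokinesis partners, all lay above 0, with a median of 1.25. Of these, 13 showed non-overlapping groups, all higher in D3TA (8.18% of all genes), and 0 passed over all genes. Racgap1, the partner of Kif23 in centralspindlin, stood at 3362, 1980 and 1719 in D3TA and at 985, 800 and 970 in WT (log2 difference 1.30 ± 0.32, SE). Cenpe, a kinetochore kinesin whose symbol lies outside the naming rule, had 2531, 1042 and 443 against 321, 244 and 97.6 (2.41 ± 0.62). Both kept the groups apart.

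Incenp, the scaffold of the passenger complex, had 3396, 1789 and 1012 in D3TA and 800, 507 and 455 in WT. Prc1, which recruits Kif4 to the midzone, had 1039, 486 and 483 against 296, 132 and 268. Tpx2, which binds Kif11 and Kif15 on the spindle, had 3789, 1477 and 1042 against 851, 663 and 502. As for the motors, D3TA-1 was the highest library for each.

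Because the mitotic kinesins were higher together, their promoters were read for letters that mark cell cycle genes. The cell cycle genes homology region (CHR) is bound by the MuvB complexes that repress genes in resting cells and activate them before mitosis, and the CCAAT box is bound by NF-Y. Windows from 250 bases before to 50 after the transcript start were taken from RefSeq (GRCm38.p6) and searched on both strands for TTTGAA or TTCGAA (CHR) and for CCAAT. An E2F site was searched as TTTCCCGC, TTTGGCGC, TTTCGCGC or TTTGCCGC. Of the 39 motor genes, 31 had a window.

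CHR letters stood in the windows of 11 of 12 mitotic kinesins, 1 of 11 transport kinesins (Kif1a) and 3 of 8 other kinesins. They stood in 19.2% of all 32851 windows. The mitotic exception was Kif18a, whose window held neither CHR nor CCAAT letters. Both CHR and CCAAT letters stood in 8 of 12, 0 of 11 and 3 of 8, against 7.52% of all windows. The CCAAT letters alone were in 8 of 12, 3 of 11 and 4 of 8, against 37.4%. The E2F letters were in 2 of 12 (Kif15 and Kif18a) and in none of the other classes, against 2.26%. Some windows lie inside the gene, among them those of Kif14, Kif2c and Kif4, which start 1505, 3867 and 328 bases from the GENCODE start. Over windows within 100 bases of that start, CHR letters were in 8 of 9 mitotic, 0 of 9 transport and 2 of 7 other kinesins. A match is a description of letters, and binding was not measured.

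Upstream stretches of 7 kinesins show where the letters lie. They end at the base before the RefSeq start, except those of Kifc1 and Kif3b, which end 28 and 3 bases earlier. Capitals mark CCAAT (or ATTGG, its reverse complement) and CHR letters (TTTGAA, or TTCAAA in reverse), and each stretch is 110 bases, 5′ to 3′ on the gene's strand. Letters of different motifs were counted separately where they overlapped. Kif11, Kif18b, Kif23, Kifc1 and Kifc5b are the mitotic kinesins whose stretch holds a whole CHR or CCAAT match. Among them only Kif11 has CHR letters within the stretch. Their groups did not overlap or almost so, but those of Kif15 and Kif20b did not overlap either. The stretches of Kif15, Kif18a, Kif20b and Kif22, also mitotic, are not shown and hold no whole CHR or CCAAT match. Of these, all but Kif18a have CHR letters elsewhere in the window. Kif3b and Kif1c are transport kinesins shown for comparison, the latter with none of the letters.
Kif11 (chr19:37376272-37376381, plus strand): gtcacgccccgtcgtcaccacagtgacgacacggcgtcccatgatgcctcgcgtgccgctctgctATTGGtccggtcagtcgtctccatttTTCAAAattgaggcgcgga
Kif18b (chr11:102925125-102925234, minus strand): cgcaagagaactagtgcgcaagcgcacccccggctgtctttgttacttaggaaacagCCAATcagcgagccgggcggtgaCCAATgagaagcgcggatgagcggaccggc
Kif23 (chr9:61946800-61946909, minus strand): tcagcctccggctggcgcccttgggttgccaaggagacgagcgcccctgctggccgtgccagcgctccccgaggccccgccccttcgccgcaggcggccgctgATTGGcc
Kifc1 (chr17:33890662-33890771, minus strand): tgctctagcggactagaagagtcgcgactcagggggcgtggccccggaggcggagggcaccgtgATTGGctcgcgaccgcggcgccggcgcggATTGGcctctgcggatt
Kifc5b (chr17:26916981-26917090, plus strand): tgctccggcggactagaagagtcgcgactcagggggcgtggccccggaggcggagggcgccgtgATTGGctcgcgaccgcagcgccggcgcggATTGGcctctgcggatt
Kif3b (chr2:153291303-153291412, plus strand): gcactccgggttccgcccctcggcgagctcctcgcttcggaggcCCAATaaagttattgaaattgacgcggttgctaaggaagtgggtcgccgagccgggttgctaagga
Kif1c (chr11:70700438-70700547, plus strand): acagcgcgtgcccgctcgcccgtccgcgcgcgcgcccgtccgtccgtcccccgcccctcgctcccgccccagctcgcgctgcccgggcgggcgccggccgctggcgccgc

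In Kif11 the CCAAT letters begin 45 bases and the CHR letters 19 bases before the start. In Kif18b the 2 CCAAT matches lie 53 and 30 bases before the start, and its CHR letters begin at base 4 after it. The CHR letters of Kif23, Kifc1 and Kifc5b begin at bases 3, 2 and 30 after the start. The Kifc1 and Kifc5b stretches differ at 4 of 110 positions, so they are near copies and not separate examples. Among mitotic kinesins without a stretch here, Kif15 has E2F letters 27 bases and CHR letters 19 bases before its start, next to each other, and Kif22 has CHR letters 17 bases before its own.

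Transport kinesins showed no shared direction. Of 16 tested, 8 lay above and 8 below 0, with a median log2 difference of 0.03, against 0.06 over all genes. None passed the test, 1 stood at an unadjusted p under 0.05 as higher (6.08% of all genes) and 0 as lower (3.83%). In 4 (Kif13b, Kif3b, Kif5a and Kif5c) the D3TA libraries all lay above the WT libraries (8.18% of all genes), and in 0 all below (6.84%). WT-3 was the lowest library for 9 of the 16 and D3TA-1 for 4. With hemoglobin high, where WT-3 alone stands for WT, the transport median was 0.50, and with hemoglobin low it was -0.02.

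**Figure D3:**
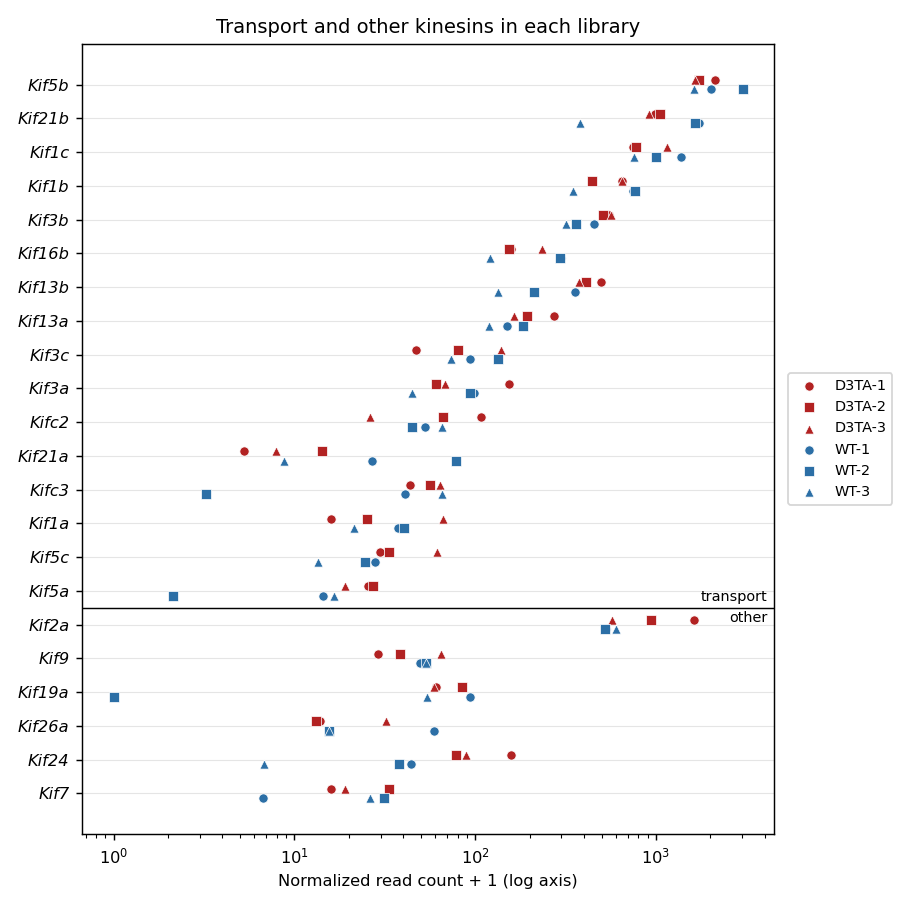
Normalized read count + 1 (log axis) of the 16 tested transport kinesins (above the line) and the 6 tested other kinesins (below) in each D3TA (red) and WT (blue) library. Red and blue points are mixed in most rows, and WT-2 lies far to the left for Kifc3, Kif5a and Kif19a.

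Kif5b, the widely expressed heavy chain of conventional kinesin, was the kinesin of highest level in WT. It stood at 2121, 1722 and 1648 in D3TA and at 2018, 3016 and 1630 in WT. The groups overlapped and differed by -0.24 ± 0.31 (SE) on the log2 scale. Kif1c, a vesicle motor also found at macrophage podosomes, had 742, 770 and 1148 against 1375, 1005 and 750, likewise overlapping.

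Kif21b, which restrains microtubule growth in neurons and lymphocytes, had 980, 1051 and 910 in D3TA but 1717, 1632 and 378 in WT. Its log2 difference was -0.06 ± 0.51. WT-3 lay below every D3TA mouse, while WT-1 and WT-2 lay above all of them. Kif21a, its homolog, was lower: 4.28, 13.1 and 6.92 in D3TA and 25.8, 77.2 and 7.73 in WT. D3TA-2 exceeded WT-3, and the log2 difference of -1.65 ± 1.0 had a limma adjusted p of 0.634. Without WT-2 it was -0.87.

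Kif13b, which carries PIP3-containing vesicles and the polarity protein Dlg1, had the smallest p among transport kinesins. It stood at 498, 410 and 372 in D3TA and at 357, 209 and 133 in WT, a log2 difference of 0.97 ± 0.40 (SE), or 0.63 without WT-3. Kif3b, the kinesin-2 subunit that pairs with Kif3a, had 548, 507 and 564 against 456, 361 and 315, a difference of 0.53 ± 0.29. These did not overlap, but the limma adjusted p values were 0.455 and 0.594. Kif3a, its partner subunit, stood at 152, 59.6 and 67.4 against 97.4, 92.9 and 43.5 and overlapped.

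Kif5a, a mainly neuronal heavy chain, was low, at 24.6, 26.3 and 18.2 in D3TA and 13.4, 1.12 and 15.5 in WT. The WT-2 value is a single read, and without WT-2 the log2 difference was 0.63 in place of 1.58. Neuronal markers ranged widely: Nefm stood at 0 to 1.12 and Snap25 at 0 to 5.60, but Syt1 at 19.3 to 194 and Tubb3 at 38.4 to 193. The neuronal list summed to 347 to 583 in D3TA and to 307 to 565 in WT, and its part in Kif5a was not tested. Kif17 had at most 11 reads in any library and was not tested. The other transport kinesins, Kif1a, Kif1b, Kif3c, Kif5c, Kif13a, Kif16b, Kifc2 and Kifc3, differed by between -0.29 (Kif16b) and 1.39 (Kifc3), and the groups overlapped in all of them but Kif5c. The counts of Kif3c are uncertain, since 35.3% of its exon bases overlap 1110002L01Rik on the opposite strand.

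Adaptors that tie motors to cargo showed no shared direction either. Of 16 tested adaptors 5 lay above 0, with a median of -0.07, and none stood at an unadjusted p under 0.05. Trak2, a mitochondrial adaptor of Kif5, had 6049, 2690 and 1316 in D3TA and 1624, 1840 and 1122 in WT. Mapk8ip3 (JIP3) had 1277, 1145 and 403 against 494, 574 and 408. In both, D3TA-3 lay inside the WT range or below it.

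Arl8a, a lysosomal GTPase that recruits kinesin, was lower in every D3TA mouse, at 588, 528 and 638 against 917, 698 and 671. Its limma adjusted p was 0.701, and D3TA-3 lay just below WT-3. It was the 1 adaptor of 16 that was lower without overlap, a pattern found in 6.84% of all genes. Kifap3, the accessory subunit of Kif3a and Kif3b, stood at 119, 186 and 167 against 193, 166 and 116. Kif1bp, the kinesin-binding protein picked up by the naming rule, had 366, 294 and 353 against 392, 403 and 309, with overlapping groups. Neither Kifap3 nor Kif1bp separated the genotypes.

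Dynein, the motor that walks the opposite way, and its cofactors showed a median of 0.17 over 20 tested genes, 14 of them above 0. Nde1, a dynein cofactor that also acts in mitosis, had 1953, 1343 and 934 in D3TA and 767, 785 and 759 in WT. Dync1li2, a light intermediate chain, had 1189, 925 and 900 against 885, 743 and 527. Dynlrb1, a light chain, was lower at 1164, 1029 and 1361 against 1484, 1706 and 1623. These 3, the genes of smallest p in the list, kept the groups apart, 2 as higher and 1 as lower of 20. That is close to the shares over all genes (8.18% and 6.84%), and 0 passed over all genes.

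Among the other kinesins, Kif24 was higher in each D3TA mouse. It encodes a centriolar motor that keeps cilia from forming in cycling cells, and it stood at 157, 77.8 and 88.2 in D3TA and at 43.0, 36.9 and 5.80 in WT. Its log2 difference was 2.21 ± 0.76 (SE), with a limma adjusted p of 0.391. The WT-3 value rests on 6 reads, and without WT-3 the log2 difference was 1.34. The Kif24 window holds both CHR and CCAAT letters, as 8 of the 12 mitotic windows do. So do the windows of Kif26b and Kif27, other kinesins whose counts were too low to be tested. The Kif27 window starts 4175 bases inside the GENCODE start.

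Kif2a, a microtubule depolymerase of spindle poles and of neurites, had 1631, 931 and 571 in D3TA and 527, 519 and 597 in WT. D3TA-3 lay inside the WT range, and the log2 difference was 0.80, or 0.41 without D3TA-1. Of its exon bases 19.2% overlap Dimt1 on the opposite strand. Its 2 RefSeq windows hold none of the letters searched. Kif2a was classed with the other kinesins although it also acts at the spindle. Counted as mitotic, it would lie below the mitotic range of 1.20 to 2.06 and lower the mitotic share of windows with CHR letters. That range and share thus depend on a class chosen with earlier results known.

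Kif19a, which limits cilium length, had 60.0, 83.8 and 57.9 in D3TA and 92.7, 0 and 53.2 in WT. A library with 0 reads sets its log2 difference of 1.97: without WT-2 it was -0.08. Kif7, Kif9 and Kif26a differed by between -0.43 and 0.30 with overlapping groups. Kif26b, Kif27 and Kif6 were not tested, and Kif6 was seen with 2 reads in WT-3 alone.

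The make-up of kinesin transcripts differed between libraries. Levels were compared between genes as normalized count per kilobase of exons. In WT the order was Kif5b (278), Kif1c (143), Kifc1 (137), Kif22 (136) and Kif21b (102). In D3TA it was Kifc1 (416), Kif22 (379), Kif11 (245), Kif5b (229) and Kif2c (164). Neither order of means held in every mouse. In WT-3, Kif22 (161) and Kifc1 (155) exceeded Kif1c (103), and Kif21b stood at 31.0. Kifc1 stood at 738, 342 and 169 per kilobase in D3TA and Kif5b at 266, 216 and 207, so that Kif5b exceeded Kifc1 in D3TA-3, as it did in all 3 WT mice.

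Summed per kilobase over the 39 motors, mitotic kinesins made up 76.3%, 65.1% and 52.7% of the level in D3TA and 42.5%, 36.2% and 51.4% in WT. D3TA-3 and WT-3 were close, so the separation in share is narrow. The mitotic sum itself was 3448, 1597 and 965 in D3TA and 732, 574 and 675 in WT. The transport sum was 767, 664 and 726 in D3TA and 859, 903 and 510 in WT, and here the D3TA libraries lay inside the WT range. The high mitotic share of WT-3 thus went with its low transport sum.

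**Figure D4:**
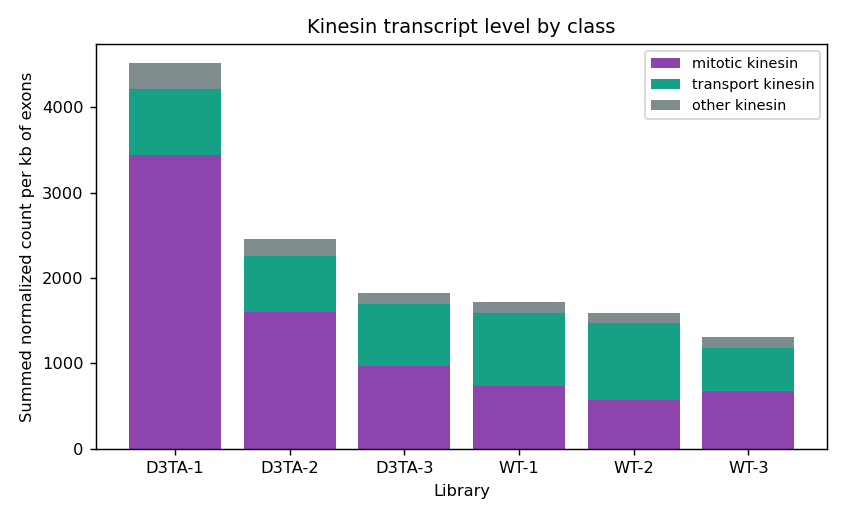
Normalized read count per kilobase of exons, summed over 13 mitotic (purple), 17 transport (green) and 9 other (grey) kinesins, stacked for each library. The mitotic part is 965 to 3448 in D3TA and 574 to 732 in WT, while the transport part is 664 to 767 in D3TA and 510 to 903 in WT.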

How the data were processed

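Polyadenylated RNA from spleen cells of 6 mice (3 D3TA, 3 WT) was sequenced, 1 library per mouse. Per the submitters' processing notes, CASAVA, FastQC, Trim Galore, HISAT2 and DESeq2 were used with build mm10. The counting program is not given in the sources used here. The deposited values are a signal, gene counts that the authors divided by 1 size factor per library: all values (100% of 149436) were whole multiples of a step per library within 0.001. Dividing by that step gave the recovered reads.

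The 15564 genes that reached 10 normalized reads in 3 or more libraries entered 1 limma fit (version 3.58.1, with trend and robust options) of log2(normalized count + 1), genotype as the only factor, with p adjusted by Benjamini-Hochberg over all of them, 2-sided at 0.05. Alternatives were TMM and library-size scaling, filters, pseudocounts of 0.5 and 5, each library left out, replicate block, terms for Y-linked reads (a summed normalized count above 200) and for a hemoglobin share above 5%, limma-voom, edgeR 4.0.16 and DESeq2 1.42.0 on recovered reads. Symbols, exons and coordinates came from GENCODE M21 (GRCm38). Members, classes and lists were chosen with earlier results of these data known. Values are printed for all mitotic kinesins, the 4 transport kinesins of smallest p and the 4 of highest level, the 3 other kinesins of smallest p, the 3 partners of smallest p in each list and Cenpe, Kifap3, Racgap1, Prc1 and Tpx2. Kif3a, Kif1bp and genes at low counts were named beyond that rule after their values were seen. The fit was tested on simulated data.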

Additional observations from a re-analysis of the deposited data

How the results depend on the processing

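Over all genes, the count of 0 called by limma became 44 with no count filter, 15 with a term for Y-linked reads, 11 with a term for hemoglobin share and 472 with DESeq2, and lay between 0 and 306 when a library was left out (306 without D3TA-3). For mitotic kinesins the count of 0 became 8 with DESeq2 and 7 without D3TA-3. It stayed 0 when any other single library was left out. Transport kinesins had 0 calls throughout. With D3TA-1 and WT-2 both left out, the mitotic median moved from 1.60 to 0.83. The median of the 6 other kinesins, 0.55, is the least stable: it was 1.39 with the filter of 50 in 3 libraries (fewer genes), 0.18 with the same pair left out, 0.35 with the hemoglobin term, 0.27 with edgeR, 0.29 with DESeq2, 0.30 with Kif1bp counted in the class (added after the data were seen), and between 0.31 and 0.78 when a library was left out. The replicate block gave 0 calls and a mitotic median of 1.60. It could not move that median, since each number holds 1 mouse of each group. The deviations of same-numbered mice correlated at -0.06, -0.005 and -0.13, within the range of -0.17 to 0.17 for differently numbered mice. Since both kinds of pair gave similar values, they cannot tell whether the number marks a pairing.

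Of 435 comparisons of 23 named kinesins with an alternative, 411 kept direction and side of the threshold, 15 passed the threshold and 9 changed sign. The main fit called 0 of them, so a comparison could gain a call but not lose one. The replicate block and the term for Y-linked reads are balanced over the groups, so neither could change a sign. When a library was left out, Kif5b lay between -0.44 and 0.0041 (positive without WT-2), Kif1c between -0.44 and 0.0011 (positive without WT-1), Kif21b between -0.77 and 0.32 (positive without WT-1 and, at 0.28, without WT-2) and Kif19a between -0.082 and 3.19 (negative without WT-2). Without D3TA-1 and WT-2 together, Kif19a was -0.011 and Kif21b 0.28. Kif21b was 0.026 with library size only and 0.27 with the hemoglobin term. The cause was not tested. Intervals from so few mice are wide, and genes such as Kif5a or Kif21a rest on few reads.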
